A study of Mus musculus with 4 samples.

Results

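Chemokine receptors are membrane proteins of the G protein-coupled receptor class that steer migrating cells toward sources of their ligands, the chemokines. The receptors a T cell carries after priming decide which tissues it can enter, such as gut, skin, lung or inflamed sites. CD8 T cells of the type 1 kind are classically marked by Cxcr3, while Ccr4 and Ccr8 are classically found on type 2 and regulatory CD4 T cells and on skin-homing cells. The list described here was drawn up by function, with earlier results of these data known, and leaves out Ccr7. Its 9 receptor genes are Ccr2, Ccr4, Ccr6, Ccr8, Ccr9, Ccr10, Cxcr3, Cxcr4 and Cxcr6, which are 9 of the 19505 genes tested. Each was read by 1 probe set of the array, named through the platform annotation.

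The RNA came from mouse T cells in culture, hybridised to 4 Affymetrix arrays. The Tc9 group holds 2 arrays of cells grown under a Tc9 cytokine condition, and the Tc1 group holds 2 arrays of cells grown under a Tc1 cytokine condition. In the field these names stand for CD8 T cells that make interleukin 9 and for CD8 T cells that make interferon gamma. Strain, age, genotype, cytokines, culture time and tissue of origin are not stated in the labels, and no label says that the 2 arrays of a group came from separate cultures. The p-values therefore measure the spread between these arrays, which may be technical, and the small number of arrays limits the precision of every value.

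The deposited values are linear intensities with a median of 48.8 and 74.5 over non-control probe sets on the Tc9 arrays numbered 1 and 2, and of 47.2 and 74.4 on the Tc1 arrays numbered 1 and 2. The arrays numbered 1 were also written with a median of 10 digits and those numbered 2 with 7, so each number holds 1 Tc9 and 1 Tc1 array of like scale and format, and every change is given within each number too. Levels below are intensities after quantile normalization, and changes are Tc9 minus Tc1 on the log2(value + 16) scale, with the SE from limma and a p adjusted by the Benjamini-Hochberg method over all genes. An array's own 5222 negative control probe sets gave a control limit, their 95th percentile, and a signal under it is called near background, which was the case on all 4 arrays for 60.2% of the genes tested. The CD8 T cell markers Cd3e, Cd3g, Cd8a, Cd8b1, Cd2 and Thy1 lay above the control limit on all 4 arrays, while Cd4 was near background on all 4.

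The promoters of the receptors that passed the test are shown because these 3 transcripts moved together. Each window runs from 250 bases before to 50 bases after the annotated start and is written in the direction of the gene, as RefSeq gives it for the GRCm38.p6 build. Capitals mark matches on either strand to 5 short motifs, namely AGATAA (the GATA core, bound by GATA factors), GGTGTG (the T-box core, for factors such as T-bet), CAGACA (the Smad repeat), AGGTCA (an element of nuclear receptors such as those for retinoic acid) and TTCNNNGAA (the STAT palindrome).
Ccr8, chr9:120091883-120092182, plus strand: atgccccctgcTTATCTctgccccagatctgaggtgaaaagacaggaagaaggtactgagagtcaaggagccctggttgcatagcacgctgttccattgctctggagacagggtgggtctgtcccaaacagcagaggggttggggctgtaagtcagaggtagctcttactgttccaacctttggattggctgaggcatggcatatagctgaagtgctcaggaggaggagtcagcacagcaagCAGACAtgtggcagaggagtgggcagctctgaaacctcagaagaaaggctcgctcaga
Ccr4, chr9:114496495-114496794, minus strand: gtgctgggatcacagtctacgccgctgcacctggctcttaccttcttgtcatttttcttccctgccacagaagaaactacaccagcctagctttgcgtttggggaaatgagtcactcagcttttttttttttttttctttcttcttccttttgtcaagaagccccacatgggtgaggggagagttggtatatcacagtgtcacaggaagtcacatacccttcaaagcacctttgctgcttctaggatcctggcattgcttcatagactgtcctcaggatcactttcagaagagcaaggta
Ccr9, chr9:123766961-123767260, plus strand: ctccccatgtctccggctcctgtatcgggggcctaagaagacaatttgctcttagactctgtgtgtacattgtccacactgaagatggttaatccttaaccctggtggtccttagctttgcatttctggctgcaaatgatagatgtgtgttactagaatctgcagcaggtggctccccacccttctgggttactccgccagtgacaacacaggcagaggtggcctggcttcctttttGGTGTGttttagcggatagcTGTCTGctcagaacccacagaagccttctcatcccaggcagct

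The Ccr8 window held the GATA core at position -239, on the opposite strand, and the Smad repeat at -8, counted from the annotated start to the leftmost base of the match as printed. The Ccr9 window held the T-box core at -13 and the Smad repeat, on the opposite strand, at 8. None of the 5 motifs is spelled in the Ccr4 window. RefSeq windows were at hand for 8 of the 9 receptors, with 2 for Ccr6, and Ccr10 is the receptor without one. The windows of Cxcr3, Cxcr4 and Cxcr6 also hold no match, that of Ccr2 holds the GATA core, and those of Ccr6 hold the GATA core, the nuclear receptor element and the STAT palindrome. Over 32851 promoter windows of the same length, 11.2% held the GATA core, 19.0% the T-box core, 21.0% the Smad repeat, 16.3% the nuclear receptor element and 8.3% the STAT palindrome. Of the matches in the receptor windows, 0 overlapped each other. A match is only a run of letters, and a window without one says nothing about whether a factor acts on the gene.

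Tc9 cells carried more transcript of Ccr8, Ccr4 and Ccr9 than Tc1 cells. Of the 9 receptors 3 rose past the limma threshold and 0 fell, against 0.385% of all genes tested that rose and 0.179% that fell. At an unadjusted limma p under 0.05, met by 5.28% of all genes, there were 6 receptors higher and 0 lower. The median log2 change of the 9 was 1.20, and that of all genes was -0.0027. Both Tc9 arrays lay above both Tc1 arrays for 6 receptors, an arrangement found for 14.0% of all genes. Since the list was chosen with earlier results of these data known, these shares describe it and do not test it. In bulk RNA a larger share of receptor-bearing cells and more transcript per cell cannot be told apart.

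**Figure D1:**
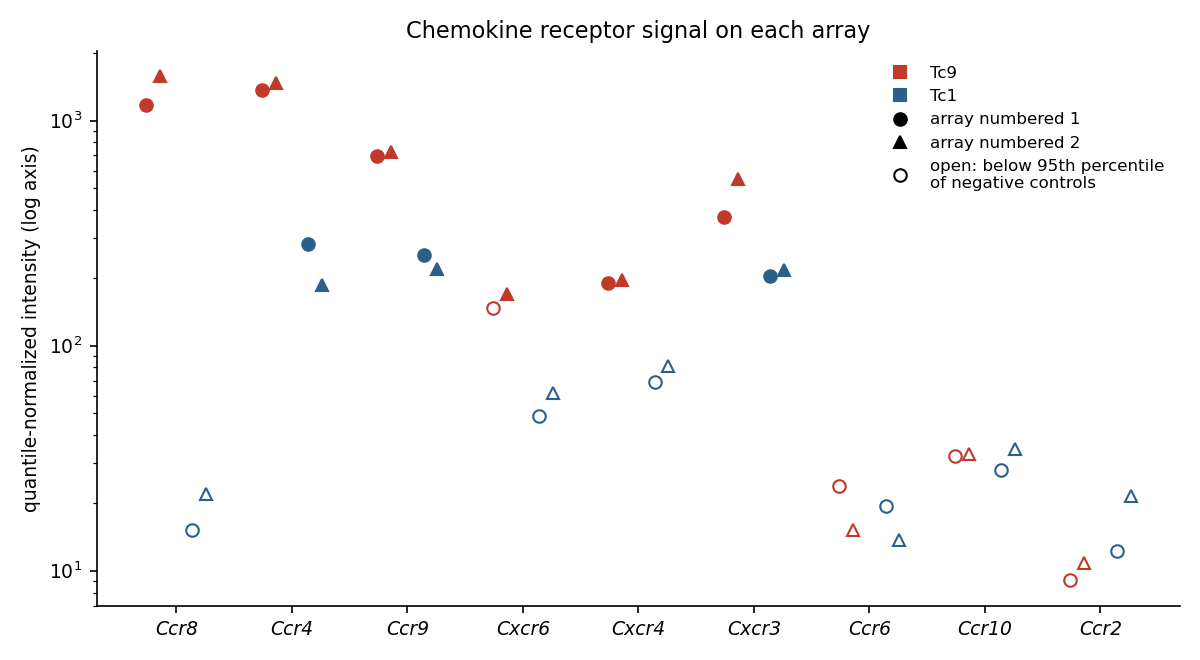
Quantile-normalized intensity (log axis) of the 9 receptors on each array, with Tc9 arrays left of Tc1 arrays, circles for arrays numbered 1, triangles for those numbered 2, and open symbols for signals under the array's control limit, the 95th percentile of its negative controls. Levels can be compared between arrays within a receptor but not between receptors, and the Tc9 symbols of Ccr8, Ccr4, Ccr9, Cxcr6, Cxcr4 and Cxcr3 all lie above the Tc1 symbols.

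Ccr8 binds Ccl1 and, in the mouse, Ccl8, and is known from type 2 cells, regulatory T cells and T cells resident in skin. Its intensity was 1176 and 1578 on the Tc9 arrays, against 15.2 and 22.0 on the Tc1 arrays. The Tc9 signals stood at the 99.2 and 99.4 percentiles of the negative controls, and the Tc1 signals at the 46.2 and 53.3 percentiles, so that Ccr8 was plainly measured in Tc9 cells and near background in Tc1 cells. The log2 change was 5.32 ± 0.23 (SE, n = 2 arrays a group, limma adjusted p = 0.000367). Within the arrays numbered 1 it was 5.25 and within those numbered 2 it was 5.39. Since a near-background signal gives only an upper limit on the Tc1 level, the rise is best read as at least 7.16-fold, from the Tc9 mean over the control limit of the Tc1 arrays, both as means of log2 values.

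Ccr4, the receptor for Ccl17 and Ccl22 on skin-homing and type 2 T cells, measured 1370.2 and 1472 on the Tc9 arrays, against 284 and 187 on the Tc1 arrays. All 4 signals lay above the control limit, the Tc1 signals only narrowly, at the 97.0 and 95.6 percentiles of the negative controls. The change came to 2.54 ± 0.21 (limma adjusted p = 0.00473). The number 2 arrays gave 2.88 and the number 1 arrays 2.21, the widest gap between the numbers among the 9 receptors, and it followed the Tc1 arrays, which stood further apart than the Tc9 arrays. The call ended with the intensities as deposited (log2 change 2.54, adjusted p = 0.274).

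Ccr9 guides T cells to the small intestine, whose epithelium makes its ligand Ccl25, and in T cells it is known to be induced by retinoic acid. It measured 698 and 725 on the Tc9 arrays, against 253 and 219 on the Tc1 arrays, and the groups stood well apart with every signal above the control limit. Its Tc1 signals cleared that limit narrowly, at the 96.5 and 96.3 percentiles of the negative controls. The change of 1.53 ± 0.17 (limma adjusted p = 0.0123) was 1.40 within number 1 and 1.65 within number 2. The call ended with the intensities as deposited (adjusted p = 1.00) and with median centring (adjusted p = 0.0847).

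**Figure D2:**
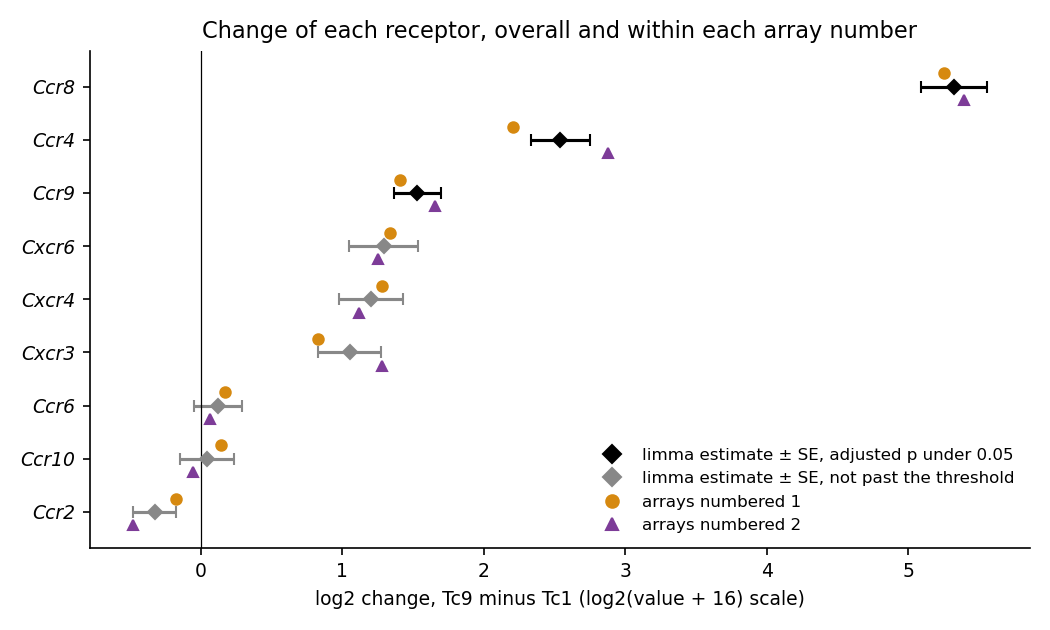
Log2 change of each receptor, Tc9 minus Tc1, with the limma estimate and its SE as diamonds (black past the threshold, grey not), and the change within the arrays numbered 1 (circles) and 2 (triangles). Ccr8, at 5.32, lies apart from the others, and Cxcr6, Cxcr4 and Cxcr3 lie between 1.05 and 1.29 without passing.

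Cxcr6, Cxcr4 and Cxcr3 were each higher on both Tc9 arrays and missed the threshold. Cxcr6, which binds Cxcl16 and is carried by resident and effector T cells of liver, lung and tumours, measured 147 and 169 on the Tc9 arrays, against 48.7 and 61.9 on the Tc1 arrays (log2 change 1.29 ± 0.25, limma adjusted p = 0.114). Of its 4 signals only that of the Tc9 array numbered 2 lay above the control limit, so the Tc1 level is an upper limit. Its changes within numbers 1 and 2 were 1.33 and 1.25.

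Cxcr4, the Cxcl12 receptor that holds cells in bone marrow and is broadly carried by T cells, measured 191 and 196 on the Tc9 arrays, against 68.9 and 81.6 on the Tc1 arrays. The change was 1.20 ± 0.23 (limma adjusted p = 0.112), and 1.28 and 1.12 within numbers 1 and 2. Both Tc1 signals were near background, which leaves a rise of at least 1.09-fold by the bound used for Ccr8. Cxcr3, which draws effector T cells toward the interferon-induced chemokines Cxcl9, Cxcl10 and Cxcl11, measured 375 and 548 on the Tc9 arrays, against 204 and 217 on the Tc1 arrays. Its change was 1.05 ± 0.22 (limma adjusted p = 0.169), 0.83 within number 1 and 1.28 within number 2. Every signal lay above the control limit, those of the Tc1 arrays narrowly, at the 95.6 and 96.3 percentiles of the negative controls. For Cxcr3 the Tc9 arrays differed more from each other than the Tc1 arrays did. For Cxcr6 the Tc1 arrays stood further apart on the log2(value + 16) scale. Without the Tc9 array numbered 1 the log2 change was 1.32 for Cxcr3 and 1.38 for Cxcr6, and both passed. With 1 Tc9 array left, that fit measures no spread among Tc9 arrays, so these calls do not show that the left-out array hid a difference. That fit called 0.856% of all genes as higher, against 0.385% with all 4 arrays.

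Ccr6, Ccr10 and Ccr2 were near background on all 4 arrays, so that a difference in them was not measurable here. Ccr6, the Ccl20 receptor of type 17 cells and B cells, measured 23.7 and 15.1 on the Tc9 arrays, against 19.3 and 13.7 on the Tc1 arrays, and the groups overlapped (log2 change 0.12, 95% interval -0.28 to 0.52). Ccr10, a receptor of skin T cells for Ccl27a and of mucosal plasma cells for Ccl28, measured 32.5 and 32.9 on the Tc9 arrays, against 28.0 and 34.8 on the Tc1 arrays. The Tc9 values of Ccr10 lay between the Tc1 values (log2 change 0.04, 95% interval -0.41 to 0.49). Ccr2, the Ccl2 receptor of monocytes and some effector and memory T cells, measured 9.05 and 10.8 on the Tc9 arrays, against 12.2 and 21.5 on the Tc1 arrays. It was lower on both Tc9 arrays, at signals no higher than the 52.4 percentile of the negative controls (log2 change -0.33, 95% interval -0.68 to 0.03).

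With the array number as a block, which removes what the arrays of 1 number share, 6 receptors passed as higher and Ccr2 as lower, against 6.34% of all genes passing as higher and 7.37% as lower. The 6 were Ccr8, Ccr4, Ccr9, Cxcr6 (limma adjusted p = 2.50e-13), Cxcr4 (5.60e-13) and Cxcr3 (4.85e-19), and Ccr2 had adjusted p = 0.00755. That fit leaves 1 residual degree of freedom and gives all genes of like intensity a common spread, and in Ccr2 it calls a difference between signals at the level of the negative controls.

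Among the other chemokine receptors no difference of this size was seen. Of 9 measured, limma called 0, with 0 at an unadjusted p under 0.05 and also 0 with the block, against 0.564% of all genes called in either direction. Their log2 changes ran from -0.34 to 0.28 with a median of -0.02. Ccr7, which draws naive and memory T cells into lymph nodes, was the one above the control limit, at 3266 and 3421 on the Tc9 arrays, against 3473 and 3445 on the Tc1 arrays. The other 8 were near background on all 4 arrays, so that none of them exceeded the control limit in either group, and differences beneath it were not measurable. Of the 6 atypical receptors, which bind chemokines without the usual G protein signal, limma called 0, with 1 lower at an unadjusted p under 0.05 and 1 lower with the block, and all 6 were near background on all 4 arrays.

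Ccl1, a ligand gene of Ccr8, and Ccl17, one of Ccr4, rose in Tc9 cells as well. Ccl1, the main ligand of Ccr8, measured 2300.5 and 2479 on the Tc9 arrays, against 528 and 571 on the Tc1 arrays (log2 change 2.09 ± 0.13, limma adjusted p = 0.00185). The groups did not overlap, and the change was 2.09 within each number. Ccl8, the other ligand of Ccr8 in the mouse, was near background on all 4 arrays (-0.01, 95% interval -0.26 to 0.23). Ccl17, a ligand of Ccr4, measured 272 and 201 on the Tc9 arrays, against 48.5 and 36.7 on the Tc1 arrays, where it was near background (2.10 ± 0.26, adjusted p = 0.0212). The bound for Ccl17 is a rise of at least 1.30-fold. With the intensities as deposited neither call held (adjusted p = 1.00 for Ccl1 and 0.272 for Ccl17). Ccl22, the other ligand of Ccr4, measured 159 and 194 on the Tc9 arrays, against 57.6 and 83.7 on the Tc1 arrays, and did not pass (1.16 ± 0.26, adjusted p = 0.207). It was near background on both Tc1 arrays and on the Tc9 array numbered 1.

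Of the ligand genes of Cxcr3, Cxcl9 and Cxcl10 had lower values on both Tc9 arrays and Cxcl11 overlapped, all at low signal. Cxcl9, induced by interferon gamma, measured 33.4 and 31.7 on the Tc9 arrays, against 104 and 119 on the Tc1 arrays (log2 change -1.39 ± 0.24, limma adjusted p = 0.0690). Cxcl10, another interferon-induced ligand of Cxcr3, measured 40.3 and 24.4 on the Tc9 arrays, against 66.5 and 51.3 on the Tc1 arrays (-0.64 ± 0.26, adjusted p = 0.865). Cxcl11, the remaining ligand, measured 17.5 and 18.8 on the Tc9 arrays, against 27.0 and 18.7 on the Tc1 arrays (-0.18, 95% interval -0.56 to 0.20). All 3 were near background on all 4 arrays, and none of them passed. Ccl25, the ligand of Ccr9, measured 238 and 268 on the Tc9 arrays, against 299 and 293 on the Tc1 arrays, without passing (-0.21, 95% interval -0.64 to 0.21). Over the 16 ligand genes of the 9 receptors 2 rose and 0 fell, against 0.385% and 0.179% of all genes, with a median log2 change of 0.00, and 12 were near background on all 4 arrays.

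**Figure D3:**
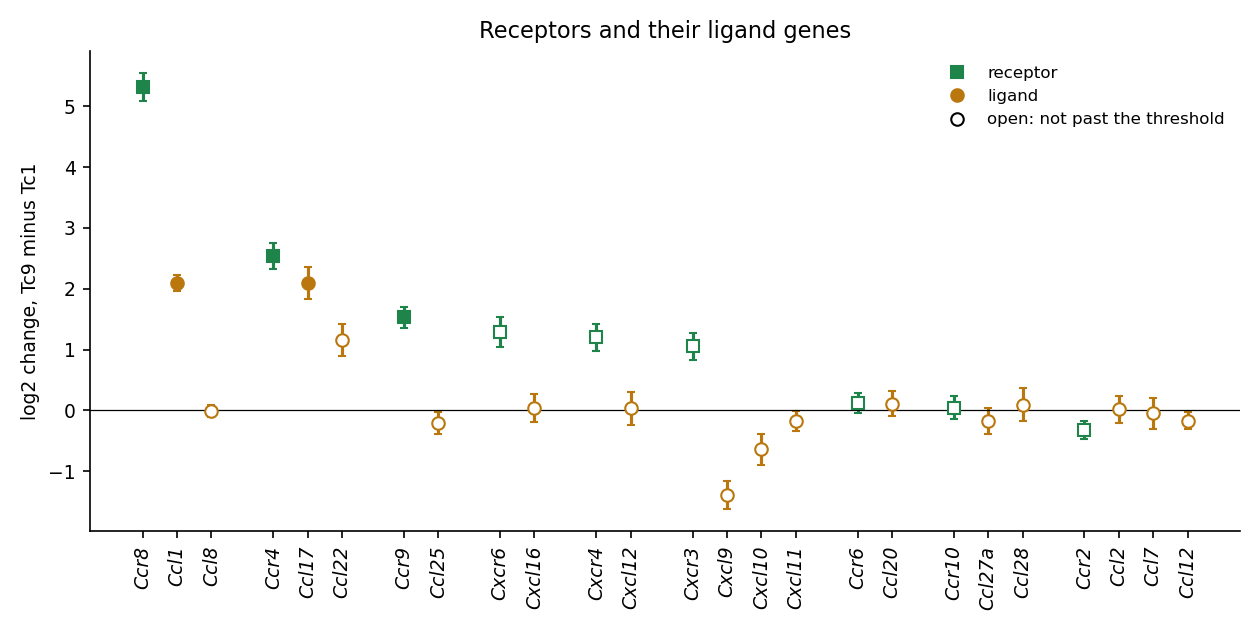
Log2 change, Tc9 minus Tc1, of each receptor (green squares) beside its ligand genes (orange circles), with the limma SE as bars and open symbols for genes not past the threshold. Ccr8 with Ccl1 and Ccr4 with Ccl17 are the receptor and ligand pairs in which both passed. Cxcr3 (1.05) and Cxcl9 (-1.39) have opposite signs, but neither passed and Cxcl9 was near background on every array.

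Among transcription factors listed as regulators of these receptors, Tbx21, Eomes and Maf passed the test, with Eomes and Maf described further below. T-bet, encoded by Tbx21, is known to drive Cxcr3. Its transcript measured 182 and 138 on the Tc9 arrays, against 685 and 534 on the Tc1 arrays (log2 change -1.83 ± 0.22, limma adjusted p = 0.0167). Cxcr3 had a positive change on the same arrays that missed the threshold, and a link between them was not tested. The Tbx21 call ended as deposited (adjusted p = 1.00) and without the intensity trend (0.0602). The retinoic acid receptor gene Rara measured 847 and 1025 on the Tc9 arrays, against 450 and 439 on the Tc1 arrays, a difference that narrowly missed the threshold (1.04 ± 0.16, adjusted p = 0.0509). Klf2 (1.39, adjusted p = 0.0509) and Foxo1 (1.12, 0.0525) of the same list, named after their values were seen, missed it as narrowly. Klf2 was near background on both Tc1 arrays, a rise of at least 1.66-fold by the bound, and Tbx21 on the Tc9 array numbered 2. Rora, one of the ROR factors known to act in Ccr6-bearing type 17 cells, was near background on all 4 arrays (0.85 ± 0.39, adjusted p = 1.00). Hif1a, the hypoxia factor known to raise Cxcr4, measured 2036 and 1700 on the Tc9 arrays, against 2126 and 1831 on the Tc1 arrays (-0.08 ± 0.15, adjusted p = 1.00). Gata3, which is known to act on Ccr4 and Ccr8 in type 2 cells, is not analysed here.

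Of the 19 measured regulators 1 rose and 2 fell, against 0.385% and 0.179% of all genes, with a median of 0.28. Maf, a factor of type 2 cells, rose by 2.63 (limma adjusted p = 0.0167), or at least 1.63-fold by the bound, since it was near background on the Tc1 arrays. The T-bet relative Eomes had a log2 change of -1.98 (limma adjusted p = 0.00381). Of 18 measured genes that act beside chemokine receptors in homing, 3 rose and 0 fell, against the same shares of all genes, with a median of 0.13. They were Itgae (log2 change 3.54, at least 9.50-fold), the CD103 chain that holds T cells on epithelium, S1pr1 (1.79, at least 1.58-fold), the receptor for exit from lymphoid organs, and Cd44 (1.60), a receptor for hyaluronan. Cd44 measured 1882 and 2113 on the Tc9 arrays, against 610.3 and 690 on the Tc1 arrays (limma adjusted p = 0.00565), while Itgae and S1pr1 were near background on the Tc1 arrays and have only those bounds. As deposited, the calls of Eomes, S1pr1 and Cd44 ended (adjusted p = 1.00 for each), as did that of Maf without the intensity trend (0.0567) and those of S1pr1 (0.0994) and Cd44 (0.0765) with median centring. S1pr1 also lost its call with a pseudocount of 64 (0.0602) and without the trend (0.0727).

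Of the 25 measured genes that carry the signal inside the cell, from G protein subunits to integrin activators, limma called 0, with 5 higher and 0 lower before adjustment (p under 0.05) and 6 higher and 3 lower with the block. Over all genes 5.28% passed before adjustment in either direction, and 6.34% passed as higher and 7.37% as lower with the block. The median log2 change of the 25 was -0.02, and 19 of the 25 lay above the control limit on all 4 arrays, so this list was well measured. Gnai2, the main inhibitory G protein subunit of lymphocytes, named after its values were seen, had 3457 and 3689 on the Tc9 arrays, against 2724 and 3096 on the Tc1 arrays (0.30 ± 0.12, adjusted p = 0.879).

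**Figure D4:**
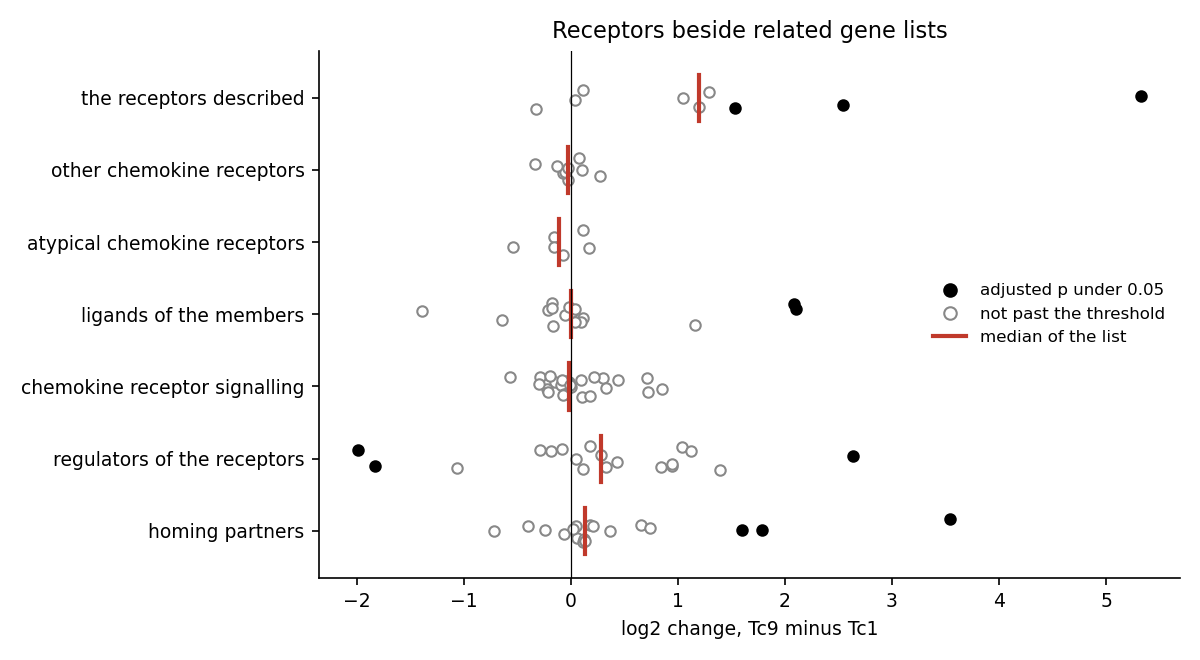
Log2 change, Tc9 minus Tc1, of the 9 receptors and of the measured genes of 6 related lists, with filled circles for genes past the threshold, open circles for the others and a red bar at each list's median. The median of the 9 receptors is 1.20, and the medians of the other lists lie between -0.11 and 0.28.

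Markers of other cells that could carry these receptors were at low signal. Of them limma called 0, also 0 at an unadjusted p under 0.05, against 0.564% and 5.28% of all genes. With the block Cd79b and Csf1r passed as higher (limma adjusted p = 0.0231 and 0.0135), against 6.34% of all genes. The 3 measured CD4 and regulatory T cell markers were near background on all 4 arrays and summed to 259 and 340 on the Tc9 arrays at the lowest and highest, against 263 and 296 on the Tc1 arrays. Foxp3, the defining factor of regulatory T cells, is not analysed here. The 9 myeloid and dendritic cell markers were near background on all 4 arrays, with sums of 470 to 495 on the Tc9 arrays and 467 to 469 on the Tc1 arrays. Of the 6 B cell markers, 5 were near background on all 4 arrays, and Cd79b was above on 1 Tc9 array, with sums of 231 to 334 on the Tc9 arrays and 202 to 323 on the Tc1 arrays. All 3 NK cell markers, the 1 measured gamma-delta T cell marker and the 5 mast cell and basophil markers were near background on all 4 arrays.

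On the chromosomes, 5 of the 9 receptors lie on chromosome 9, among them all 3 that rose, though Ccr4 and Ccr8 are apart from each other and from the rest. Ccr9, Cxcr6 and Ccr2 belong to 1 receptor cluster, in which the protein-coding order in the RefSeq table (GRCm38.p6) runs Lztfl1, Ccr9, Fyco1, Cxcr6, Xcr1, Ccr1, Ccr1l1, Ccr3 and Ccr2. Within it Ccr9 (log2 change 1.53) and Cxcr6 (1.29) stood out. Fyco1, which lies between them, had a change of -0.17, Xcr1 -0.13 and Ccr1 -0.02, all 3 near background, while the well-measured Lztfl1 had 0.35 ± 0.16 (limma adjusted p = 1.00). Beside Ccr8, Cx3cr1 (0.28) and Slc25a38 (0.25) did not pass, and beside Ccr4, Trim71 (0.01) and Cnot10 (-0.12) did not. Taking the 3 protein-coding genes on each side of every receptor, 38 of 47 that are not themselves among the 9 were measured, and limma called 0 of them, with 2 higher and 0 lower before adjustment (p under 0.05) and 8 higher and 1 lower with the block. The shares of all genes are 5.28% before adjustment, and 6.34% higher and 7.37% lower with the block. Changes of the neighbours ran from -0.24 to 0.78.

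By the root mean square distance between log2 values over the 4 arrays, each gene centred on its own mean, the genes nearest to Ccr8 were Nt5e (distance 0.67), Aqp3 (0.69) and Itgae (0.91). These distances include Tc1 signals near background for all 4 genes. Nearest to Ccr4 were Maf (0.09), Ldlrad4 (0.17) and Cd72 (0.20), and nearest to Ccr9 were Igfbp4 (0.08), Tspan9 (0.09) and Ypel3 (0.09). Maf and Ldlrad4 were also near background on the Tc1 arrays. With 4 arrays this likeness describes these samples only.

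**Figure D5:**
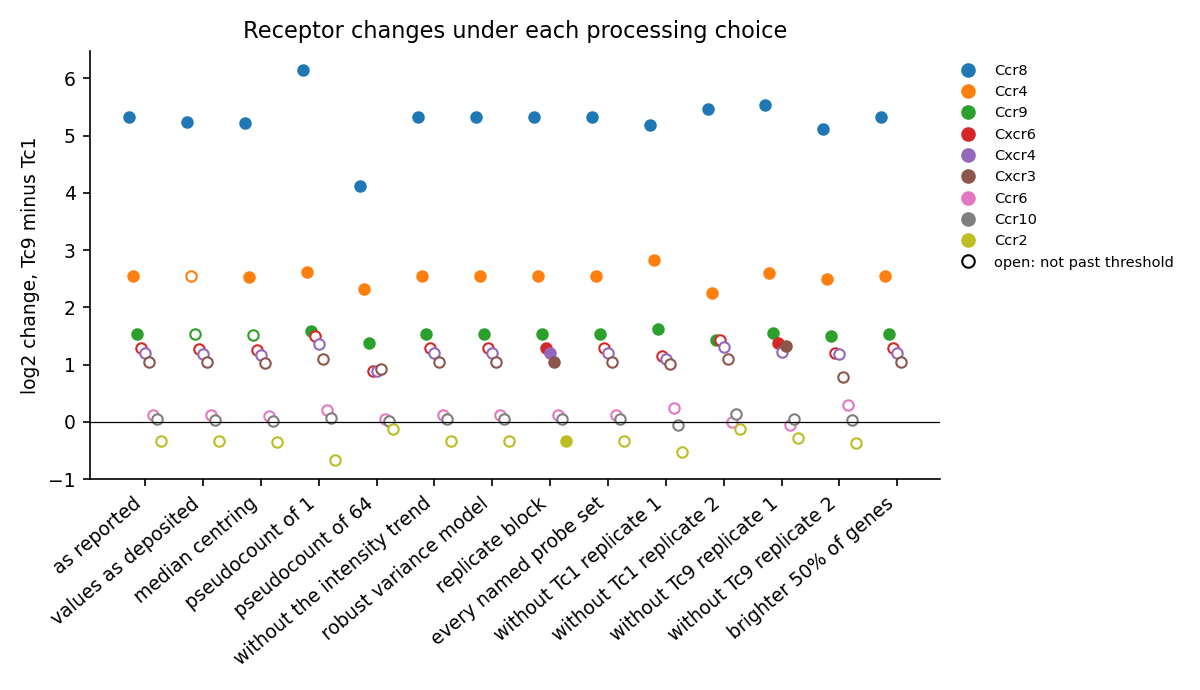
Log2 change of each receptor, Tc9 minus Tc1, as reported and under each processing alternative, with filled circles where the adjusted p was under 0.05 and open circles otherwise. Ccr8 is filled under every alternative shown, at 4.11 to 6.14, while Ccr4 and Ccr9 are open with the values as deposited and Ccr9 also with median centring.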

How the data were processed

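The authors deposited a table of linear intensity values, 28846 probe sets by 4 arrays (2 Tc9, 2 Tc1). Per the labels, RNA was taken with Trizol and given a biotin label by the Affymetrix protocol. Background correction, summarization and software are not stated in the labels. Leaving out 6640 control probe sets, 22206 were quantile normalized, 16 was added and log2 was taken. A single symbol was annotated for 19572 of them, 2634 were unnamed here, and all 19572 Entrez identifiers matched the RefSeq table. The probe set with the highest mean stood for a gene, giving 19505 genes. Groups and numbers came from the sample titles. The fit was limma 3.58.1 in R 4.3.3 (lmFit, eBayes with an intensity trend, 2 residual and 5.09 prior degrees of freedom), with a threshold of 0.05 on the adjusted p, and was tested on simulated data. A bound sets the brighter group's mean log2 value against the 95th percentile of the negative controls in the dimmer group. Described are all 9 receptors, their ligand genes, known factors, called genes of the lists, 3 neighbours on each side and the 3 most similar genes. Receptors and lists were chosen with earlier results of these data known. Alternatives covered scaling, pseudocount, dim genes, the variance model, the block and leaving out each array.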

Additional observations from a re-analysis of the deposited data

How the results depend on the processing

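With the values as deposited 16 genes passed (13 higher, 3 lower), with median centring 52 (30 and 22), without the intensity trend 56 (37 and 19) and with the replicate block 2674 (1236 and 1438), against 110 (75 and 35) as reported. Leaving out 1 array gave 186 to 274. Of the 9 receptors, 1 passed as deposited (Ccr8) and 7 with the replicate block, against 3 as reported. Of the genes in the 6 related lists, 8 passed (6 higher, 2 lower), against 2 as deposited, 5 without the trend, 38 with the replicate block and 12 to 17 without 1 array, the rise beyond 1.5 times coming without the Tc1 array numbered 1 (15) and without the Tc9 array numbered 1 (14) or 2 (17). The 114 values of single receptors include those without 1 array. Of them, 102 kept direction and side of the threshold, 3 lost the call, 6 gained it and 3 changed sign. The gains came with the block or without the Tc9 array numbered 1. The 3 changes of sign were among the near-background receptors. Without 1 array Ccr6 ran from -0.058 (no Tc9 array numbered 1) to 0.29, with -0.0066 without the Tc1 array numbered 2, and Ccr10 from -0.061 (no Tc1 array numbered 1) to 0.15. Ccr2 ran from -0.53 to -0.12 without 1 array. The fits without 1 array are no test of whether a call is stable. Deviations from the group means correlated across genes with r = 0.729 between the Tc9 and Tc1 arrays numbered 1. With 2 arrays a group, the arrays numbered 2 give the same r by construction. No label ties arrays of 1 number together, so the block was kept as an alternative. Ccr2, Ccr6 and Ccr10 fell out of the brighter 50% of genes. Signals near the negative controls limit Ccr2, Ccr6 and Ccr10 in both groups, and Ccr8, Cxcr4 and Cxcr6 in Tc1 cells.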
